A study of Mus musculus with 8 samples.

Results

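The genes described here are 10 members of the TGF-beta and BMP signalling pathways, picked by symbol (Skil, Ski, Smad7, Smad6, Smad3, Smad4, Tgfb1, Tgfbr1, Tgfbr2 and Bmpr1a) out of 33641 gene symbols measured in mouse hematopoietic stem cells. They were chosen with their levels in these libraries already known, so those levels are given as a description, with no test. All 10 reached 1 TPM (a level scaled for transcript length and for the total of the library) in at least 2 of the 8 libraries, as did 16064 of the 33641 symbols. Bmpr1a did so only through the null groups, since both wild-type libraries were below 1 TPM.

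RNA was measured by bulk sequencing of stem cells sorted from the bone marrow of C57BL/6 mice, in 4 genotypes with 2 libraries each. The groups were Scribble null (Scribble-/-), Yap1 Taz null (Taz-/-;Yap1-/-), triple null (Scribble-/-;Taz-/-;Yap1-/-) and wild type. By the protocols all of these mice, wild type included, carried Mx1-Cre and were injected 6 times with polyI:C on alternate days (10 mg/kg), and cells were taken 1 week later. Mx1-Cre is switched on by interferon in many cell types, so deletion is not limited to the sorted cells; the labels give no ages and do not say whether animals were pooled. The series' design text calls the 2 libraries of a genotype experimental replicates and does not tie them to separate animals, so every p-value below measures the spread between libraries, which may be technical.

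TGF-beta and BMP ligands bind type II receptors, which activate type I receptors, which phosphorylate receptor-activated SMADs; these enter the nucleus with Smad4 and regulate target genes. Ski and Skil (the protein is also called SnoN) bind the SMADs on DNA and recruit corepressors, while Smad6 and Smad7 block the receptors, and Skil and Smad7 are themselves switched on by the pathway in many cell types. In bone marrow, TGF-beta is known for holding stem cells in quiescence. Scribble is a scaffold protein of cell polarity, and Yap1 and Taz (gene Wwtr1) are transcriptional coactivators of the Hippo pathway that act through TEAD factors.

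By gene TPM, no targeted gene was lower in all libraries labelled null for it than in all the others. Wwtr1 was higher in both Scribble null libraries than in all others. In Scribble null, the TPM of Scrib was 6.25 and 7.63, beside 7.98 and 7.32 in Yap1 Taz null, 14.5 and 7.54 in triple null, and 8.19 and 9.29 in wild type. Yap1 was at 5.83 and 2.45 TPM in Scribble null, 2.13 and 6.63 in Yap1 Taz null, 2.25 and 2.37 in triple null, and 2.00 and 2.15 in wild type. Wwtr1 was at 5.32 and 3.91 TPM in Scribble null, 1.09 and 1.15 in Yap1 Taz null, 1.92 and 0.775 in triple null, and 0.730 and 1.19 in wild type. A deletion of some exons can leave a gene's total TPM in place, so these values check no label, and each group name below means the libraries labelled so. All 11 stem cell markers reached 1 TPM in at least 2 libraries, with a summed level of 1826 to 2053 TPM in Scribble null, 1780 to 2050 in Yap1 Taz null, 2122 to 2206 in triple null and 1706 to 1743 in wild type. Granulocyte markers summed to 383 to 546 TPM in Scribble null, 242 to 259 in Yap1 Taz null, 303 to 311 in triple null and 171 to 199 in wild type. Of these 8 markers, 4 reached 1 TPM in at least 2 libraries, with Ctsg and S100a8 under 1 TPM throughout. Prtn3 made up most of each sum, at 262 to 425, 163 to 173, 197 to 214 and 118 to 141 TPM in that order. The 7 others summed to 120 to 121, 69.4 to 95.9, 97.5 to 106 and 53.4 to 58.3 TPM. The part of these markers in the results was not tested. Summed erythroid, B cell, T and NK cell, endothelial and stromal markers lay between 7.42 and 156 TPM in every library. Markers reaching 1 TPM in at least 2 libraries numbered 5, 4, 4, 3 and 4 in that order. The lists held 7, 6, 6, 4 and 5. Pax5, Cd3e, Cdh5 and Cxcl12 were each under 1 TPM. T and NK cell markers summed to 102 to 120 TPM in Scribble null and 63.1 to 76.6 in Yap1 Taz null. In triple null they summed to 106 to 116 TPM, and in wild type to 144 to 156. Of these, Nkg7 was at 56.2 to 152 TPM, highest in wild type. Klrb1c was at 30.9 and 15.0 TPM in Scribble null and 0.659 to 5.35 TPM elsewhere. Their part in the results was not tested. The Y-linked gene Eif2s3y was at 4.16 and 4.63 TPM in Yap1 Taz null, against 45.8 to 64.1 TPM in the other 6 libraries. Kdm5d and Ddx3y, also Y-linked, were at 5.25 and 7.31 and at 2.48 and 2.05 TPM there, against 38.6 to 50.0 and 18.1 to 36.9 TPM. A difference in sex or cell make-up of that group cannot be told apart from its genotype. Its part in any value of that group, or in any departure from additivity, was not tested. The median difference of all genes tested from wild type was 0.14 (log2) in Scribble null, 0.14 in Yap1 Taz null and 0.12 in triple null, and near 0 after median-ratio scaling, so each difference below is to be read against that shift.

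Promoter sequences are shown for 3 members that differ in how they varied: Ski and Bmpr1a, whose Scribble null and Yap1 Taz null libraries all lay above the triple null and wild-type libraries, and Smad6, whose Scribble null libraries overlapped wild type. Each runs 5′ to 3′ on the gene's strand, over 300 bases around the gene's start as RefSeq gives it in GRCm38.p6, and capitals mark a motif. Ski lies at chr4:155222486-155222785 (minus strand), Smad6 at chr9:64022010-64022309 (minus strand) and Bmpr1a at chr14:34502497-34502796 (minus strand).
Ski: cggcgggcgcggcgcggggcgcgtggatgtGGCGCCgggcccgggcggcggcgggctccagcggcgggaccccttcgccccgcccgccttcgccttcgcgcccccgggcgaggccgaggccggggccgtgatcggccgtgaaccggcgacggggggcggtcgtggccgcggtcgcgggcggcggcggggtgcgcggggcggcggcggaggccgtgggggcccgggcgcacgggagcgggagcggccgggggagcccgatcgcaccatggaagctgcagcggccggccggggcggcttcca
Smad6: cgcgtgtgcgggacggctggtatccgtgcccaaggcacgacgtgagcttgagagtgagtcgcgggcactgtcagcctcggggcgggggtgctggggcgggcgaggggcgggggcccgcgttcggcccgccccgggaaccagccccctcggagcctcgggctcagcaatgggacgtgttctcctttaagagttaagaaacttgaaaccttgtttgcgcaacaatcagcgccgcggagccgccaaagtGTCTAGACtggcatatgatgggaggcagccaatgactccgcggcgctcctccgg
Bmpr1a: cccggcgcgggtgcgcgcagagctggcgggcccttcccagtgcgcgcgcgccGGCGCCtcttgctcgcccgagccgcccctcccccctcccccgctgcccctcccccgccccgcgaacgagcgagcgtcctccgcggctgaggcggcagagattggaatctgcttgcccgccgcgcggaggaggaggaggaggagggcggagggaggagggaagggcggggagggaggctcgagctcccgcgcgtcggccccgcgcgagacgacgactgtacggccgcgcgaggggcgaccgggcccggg
The capitals in Ski and Bmpr1a are GGCGCC, a GC-rich SMAD motif present in 11.9% of 32851 RefSeq promoters of this length. The capitals in Smad6 are GTCTAGAC, a palindromic SMAD element, present in 0.213% of them; this search was added after the Smad6 sequence had been read. The SMAD box CAGAC (either strand; 49.6% of promoters) and the TEAD motif GGAATG (either strand; 14.7%) have no match in these 3 windows. None of the motifs shares its letters with another at a matched position, and a match is a description of the letters, not of binding. Promoters were read for 7 of the 10 members, and among the 4 not shown the box CAGAC had 1 match in Tgfbr2 and 1 in a second start of Tgfbr1, and GGCGCC had 1 in the first start of Tgfbr1.

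Skil, the nuclear corepressor SnoN, was high in both partly deleted genotypes and close to wild type in the triple null. Its level was 142 and 151 TPM in Scribble null, 141 and 139.6 TPM in Yap1 Taz null, 58.6 and 57.6 TPM in triple null, and 50.1 and 52.5 TPM in wild type. The 4 libraries that lacked either Scribble or the Yap1 Taz pair all lay at 139.6 TPM or more, the 4 others at 58.6 TPM or less, and no genotype overlapped its neighbour. The means were 146.4 ± 6.01 TPM in Scribble null, 140.1 ± 0.725 in Yap1 Taz null, 58.1 ± 0.699 in triple null and 51.3 ± 1.74 in wild type (SD, n = 2 each). In that order, Scribble null and Yap1 Taz null differed by 6.25 TPM, less than the sum of their SDs, and triple null exceeded wild type by 6.84 TPM, more than theirs.

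All differences below are of log2(TPM + 1) unless TPM is named. Skil differed from wild type by 1.49 in Scribble null, 1.43 in Yap1 Taz null and 0.18 in triple null, the last becoming 0.0381 under median-ratio scaling. The ratios of mean TPM were 2.85, 2.73 and 1.13 in the same order. If the 2 losses added on this scale, triple null would stand above both; its departure from that sum was -2.75, with a standard error of 0.177. Against the genotypes with fewer deletions, triple null differed by -1.32 from Scribble null and by -1.26 from Yap1 Taz null. Skil lies at chr3:31095058-31122577 (plus strand, GRCm38). As these are bulk samples, fewer cells of a type and less RNA per cell cannot be told apart, for Skil and for every gene below.

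**Figure D1:**
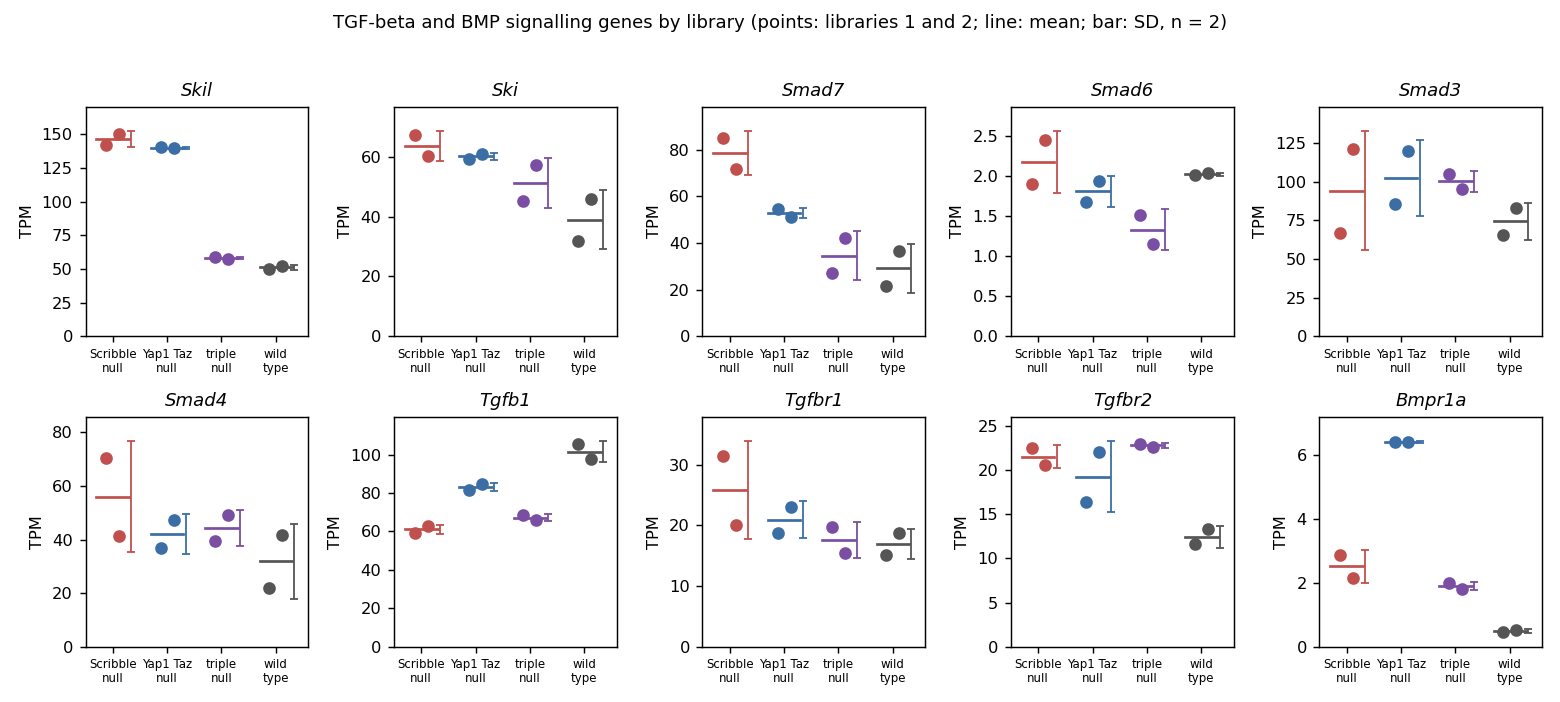
TPM of the 10 genes in each of the 8 libraries, on a linear axis from 0 in each panel; points are libraries, the horizontal line is the genotype's mean and the bar its SD (n = 2). Skil lies at 139.6 TPM or more in the 4 Scribble null and Yap1 Taz null libraries and at 58.6 TPM or less in the 4 triple null and wild-type libraries, while genotypes next to each other in mean overlap for Smad3 and Smad4.

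Ski (chr4:155154075-155222592, minus strand), the closest relative of Skil, showed the same order of genotype means in a narrower range. It was at 67.2 and 60.2 TPM in Scribble null, 59.3 and 61.0 TPM in Yap1 Taz null, 45.4 and 57.3 TPM in triple null, and 31.95 and 46.1 TPM in wild type. Its 4 Scribble null and Yap1 Taz null libraries lay above the other 4, but triple null overlapped wild type, and no neighbouring means differed by more than the sum of their SDs. The differences from wild type were 0.71, 0.64 and 0.40 (log2) in Scribble null, Yap1 Taz null and triple null. Skil and Ski differed in size in Scribble null: the ratio of mean TPM to wild type was 2.85 for Skil and 1.63 for Ski.

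Smad7 (chr18:75367529-75395935, plus strand), the inhibitory SMAD that directs ubiquitin ligases to the TGF-beta receptors, was highest in Scribble null. It was at 85.3 and 71.9 TPM in Scribble null, 54.5 and 51.4 TPM in Yap1 Taz null, 27.2 and 42.1 TPM in triple null, and 21.8 and 36.7 TPM in wild type. Scribble null lay above Yap1 Taz null, which lay above both other genotypes, and triple null overlapped wild type. Differences from wild type were 1.44 in Scribble null, 0.88 in Yap1 Taz null and 0.25 in triple null, and the last became -0.11 without triple null replicate 2 and likewise without wild type replicate 1. The departure of triple null from additivity was -2.07, the same direction as for Skil. Unlike Skil, Smad7 differed between Scribble null and Yap1 Taz null by 25.6 TPM, more than the sum of the SDs.

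Smad6 (chr9:63953076-64022059, minus strand), the inhibitory SMAD that acts mainly on the BMP branch, had the lowest mean TPM of the 10 over all libraries. It was at 1.90 and 2.45 TPM in Scribble null, 1.68 and 1.95 TPM in Yap1 Taz null, 1.51 and 1.15 TPM in triple null, and 2.01 and 2.04 TPM in wild type. Scribble null overlapped wild type, and the triple null libraries were the lowest pair. Its differences from wild type were 0.07, -0.11 and -0.38 in Scribble null, Yap1 Taz null and triple null, and the first changed sign under median-ratio scaling and without Scribble null replicate 2. In Yap1 Taz null, Smad6 was below both wild-type libraries and Smad7 above both.

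For the SMADs that carry the signal, genotypes next to each other in mean level overlapped. Smad3 (chr9:63646767-63757994, minus strand), the receptor-activated SMAD of the TGF-beta branch, was at 66.8 and 121 TPM in Scribble null, 85.3 and 120.1 TPM in Yap1 Taz null, 105 and 95.5 TPM in triple null, and 65.7 and 82.9 TPM in wild type. Its Scribble null libraries spanned nearly the range of all 8, and the 0.28 difference of Scribble null from wild type became -0.14 without Scribble null replicate 2. Smad4 (chr18:73639009-73703780, minus strand), the shared partner SMAD, was at 70.6 and 41.4 TPM in Scribble null, 36.7 and 47.4 TPM in Yap1 Taz null, 39.4 and 49.1 TPM in triple null, and 22.0 and 41.7 TPM in wild type. Wild type had the lowest mean of both genes, and overlapped the genotype next above it; both Yap1 Taz null and both triple null libraries of Smad3, however, lay above both wild-type libraries. Smad4 differed from wild type by 0.81, 0.45 and 0.52 in Scribble null, Yap1 Taz null and triple null, beside 0.28, 0.45 and 0.44 for Smad3. When 1 library was left out, the Yap1 Taz null difference of Smad4 ran between 0.0009 and 0.89. A pseudogene model on the other strand, AC132418.2, overlaps 274 bases of Smad4, and without a stated strand setting reads of the pair cannot be told apart.

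Tgfb1 (chr7:25687002-25705077, plus strand), a ligand made by megakaryocytes and other marrow cells, was the 1 member below wild type in all 3 null genotypes without overlap. It was at 59.5 and 62.6 TPM in Scribble null, 81.6 and 84.7 TPM in Yap1 Taz null, 68.6 and 65.9 TPM in triple null, and 105 and 97.7 TPM in wild type. The 4 genotypes did not overlap, and each neighbouring pair of means differed by more than the sum of its SDs. The differences from wild type were -0.72 in Scribble null, -0.28 in Yap1 Taz null and -0.59 in triple null. In the authors' second table, which covers the whole series on another scale, the Yap1 Taz null difference was 0.03, with 70.9 and 78.5 in Yap1 Taz null against 70.8 and 75.3 in wild type. The megakaryocyte and platelet marker Pf4, a platelet chemokine, was also highest in wild type. The summed level of the marker list was 600 to 621 TPM in Scribble null, 735 to 768 in Yap1 Taz null, 599 to 653 in triple null and 1269 to 1389 in wild type, with 9 of 10 reaching 1 TPM in at least 2 libraries. Pf4 carried the wild-type excess, at 94.9 and 98.9 TPM in Scribble null, 222 and 211 in Yap1 Taz null, 135 and 222 in triple null, and 816 and 958 in wild type. The 9 other markers summed to 504.7 to 522 TPM in Scribble null, 513 to 557 in Yap1 Taz null, 431 to 464 in triple null and 432 to 453 in wild type, and the integrin subunit Itgb3 was lowest in wild type, at 63.3 and 68.5 TPM in Scribble null, 37.7 and 34.9 in Yap1 Taz null, 50.1 and 52.4 in triple null, and 18.6 and 28.5 in wild type. The part of these markers in the Tgfb1 levels was not tested.

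Of the TGF-beta receptors, Tgfbr2 had its highest mean in triple null and Tgfbr1 in Scribble null. Tgfbr2 (chr9:116084293-116175360, minus strand), the type II receptor that binds TGF-beta, was at 22.5 and 20.6 TPM in Scribble null, 16.4 and 22.1 TPM in Yap1 Taz null, 23.0 and 22.7 TPM in triple null, and 11.6 and 13.3 TPM in wild type. All 6 null libraries lay above both wild-type libraries, and the differences were 0.75, 0.58 and 0.83 in Scribble null, Yap1 Taz null and triple null. Tgfbr1 (chr4:47353222-47414931, plus strand), the type I partner, was at 31.5 and 20.04 TPM in Scribble null, 18.7 and 23.1 TPM in Yap1 Taz null, 19.7 and 15.5 TPM in triple null, and 15.1 and 18.7 TPM in wild type. For Tgfbr1 each genotype overlapped the next in the order of means, although both Yap1 Taz null libraries lay just above the wild-type pair. Its differences were 0.55, 0.29 and 0.05, and the last changed sign under median-ratio scaling and without triple null replicate 1 or wild type replicate 1. In triple null, mean Tgfbr2 was 1.06 times its Scribble null level, beside 0.397 times for Skil.

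Bmpr1a (chr14:34410734-34503341, minus strand), a type I receptor for BMPs, was highest in Yap1 Taz null. It was at 2.88 and 2.16 TPM in Scribble null, 6.40 and 6.43 TPM in Yap1 Taz null, 1.98 and 1.82 TPM in triple null, and 0.448 and 0.522 TPM in wild type. No genotype overlapped another, with Scribble null and triple null differing by less than the sum of their SDs. The ratio of mean TPM to wild type was 5.19 in Scribble null, 13.2 in Yap1 Taz null and 3.92 in triple null, against a wild-type level too low to fix a fold closely. On the log2 scale the differences were 1.24, 2.32 and 0.97, and the Yap1 Taz null value ran between 1.06 with a pseudocount of 5 and 3.48 with a pseudocount of 0.1. The departure of triple null from additivity was -2.59, and ran between -3.86 and -1.18 over the other settings. An antisense gene model, Gm17110, overlaps 970 bases of Bmpr1a; as no strand setting is stated, reads of the pair cannot be told apart.

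**Figure D2:**
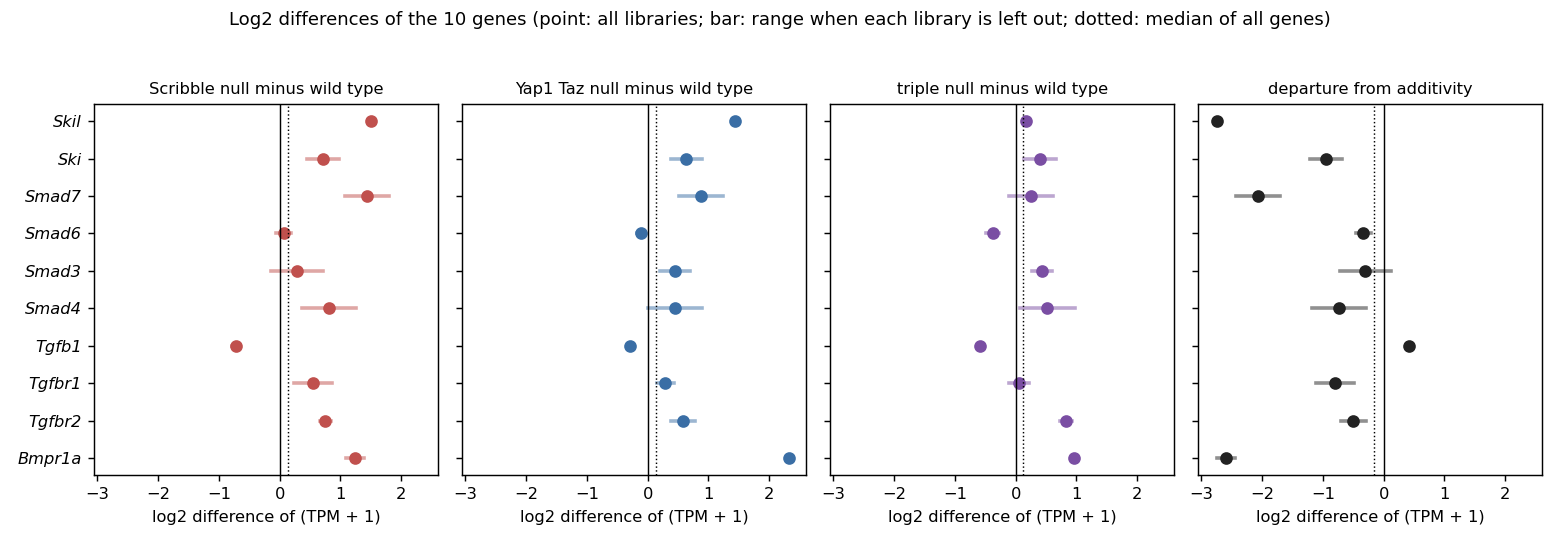
Difference in log2(TPM + 1) of each gene from wild type in Scribble null, Yap1 Taz null and triple null, and departure of triple null from the sum of both differences; points are from all libraries, bars span the values when each library is left out, and the dotted line is the median of all genes. Skil stands at 1.49, 1.43 and 0.18, Bmpr1a at 1.24, 2.32 and 0.97, and Tgfb1 at -0.72, -0.28 and -0.59, while the departure is -2.75 for Skil and 0.42 for Tgfb1.

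Across the 10 genes the median difference from wild type was 0.73 in Scribble null, 0.52 in Yap1 Taz null and 0.33 in triple null, beside 0.14, 0.14 and 0.12 over all genes tested. The 3 comparisons share the wild-type libraries. In the fit over all genes (limma, adjusted p under 0.05), Skil (higher) and Tgfb1 (lower) passed in Scribble null, where 1.30% of all genes passed. Skil and Bmpr1a (both higher) passed in Yap1 Taz null, where 0.990% of all genes did. No member passed in triple null, where 0.579% of all genes did; 3 of the 10 had an unadjusted limma p under 0.05 there, as did 10.9% of all genes. Skil (lower) passed in triple null against Scribble null, where 0.212% of all genes did, and in triple null against Yap1 Taz null, where 0.181% did. For the departure from additivity Skil and Bmpr1a (both negative) passed, beside 0.635% of all genes. As the genes were chosen on these levels, nothing is read from those counts. The tallies over other settings that follow refit the same libraries, and nothing is read from them either. Over 17 other settings, Skil kept its call in 17 for Scribble null, Yap1 Taz null and the departure, in 13 for triple null against Scribble null and in 11 for triple null against Yap1 Taz null. Those lost on leaving out a library were lost without either library of triple null and, for the last, without either library of Yap1 Taz null. Tgfb1 kept its call in 4 of 17, none of them with a library left out. Bmpr1a kept its Yap1 Taz null call in 11 of 17, losing it without either library of Yap1 Taz null or of wild type, and its departure call in 3 of 17, none with a library left out.

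The libraries did not overlap with wild type, on the higher side, for 6 of 10 genes in Scribble null (33.2% of all genes), 7 in Yap1 Taz null (32.0%) and 4 in triple null (30.9%). On the lower side these were 1 gene in Scribble null (15.7%), 2 in Yap1 Taz null (14.5%) and 2 in triple null (14.2%). Triple null lay without overlap above Scribble null for 2 genes (19.0%) and below it for 6 (21.1%), and above Yap1 Taz null for 1 gene (18.7%) and below it for 6 (21.3%). The pattern of Skil, with both Scribble null and both Yap1 Taz null libraries above all triple null and wild-type libraries, was also seen in Ski, Smad7 and Bmpr1a, so in 4 of 10 members. Of all genes tested, 790 (4.92%) had it.

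Skil and Bmpr1a shared this pattern but had different closest genes. Over the 8 libraries, which share genotypes in pairs, the Pearson correlation of log2(TPM + 1) with Skil was 0.865 for Smad7, 0.797 for Bmpr1a, 0.785 for Ski, 0.665 for Tgfbr1, 0.473 for Smad4, 0.444 for Tgfbr2, 0.394 for Smad6, 0.298 for Smad3 and -0.455 for Tgfb1. Among 5536 candidate genes genes near to Skil included Dennd4a (0.965), the dendritic cell lectin Clec9a (0.963), the histone gene Hist1h2bq (0.950) and the glycine receptor subunit Glrb (0.947). Dennd4a was at 101 and 109.98 TPM in Scribble null, 92.1 and 113 in Yap1 Taz null, 58.2 and 57.4 in triple null, and 48.1 and 63.3 in wild type. The nearest to Bmpr1a were the acid-sensing channel Asic1 (0.993), the tether Aspscr1 (0.981), the clathrin adaptor Necap1 (0.956), the transporter Slc38a6 (0.953) and the olfactory receptor Olfr531 (0.946). Aspscr1 was at 68.8 and 59.2 TPM in Scribble null, 86.6 and 91.0 in Yap1 Taz null, 52.4 and 53.8 in triple null, and 44.3 and 39.8 in wild type. Clec9a was at 8.61 and 11.7 TPM in Scribble null, 14.1 and 13.5 in Yap1 Taz null, 3.40 and 3.58 in triple null, and 2.43 and 3.89 in wild type. The summed level of monocyte, macrophage and dendritic markers ran otherwise: 541 to 593 TPM in Scribble null, 709 to 782 in Yap1 Taz null, 1022 to 1062 in triple null and 2883 to 3250 in wild type, with 7 of 10 markers reaching 1 TPM in at least 2 libraries and Csf1r, Adgre1 and Itgax under 1 TPM throughout. The class II genes H2-Aa, H2-Ab1 and Cd74 carried that order: the other 7 markers summed to 239 to 288 TPM in Scribble null, 198 to 231 in Yap1 Taz null, 263 to 313 in triple null and 241 to 282 in wild type. Each correlation is a description of these 8 libraries.

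**Figure D3:**
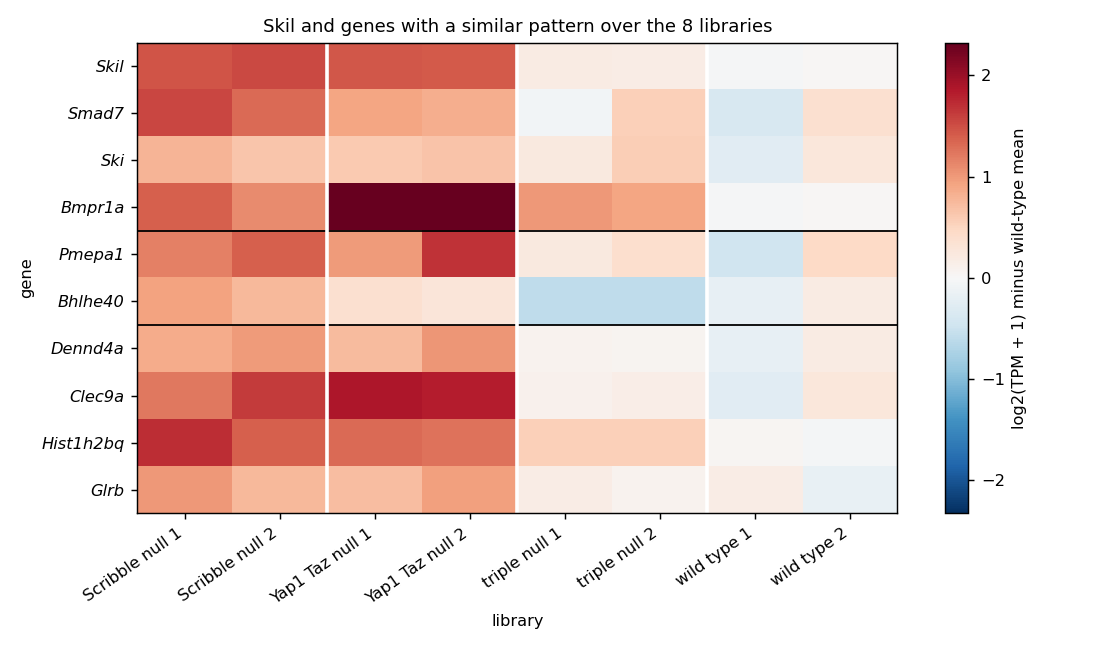
Colour map of log2(TPM + 1) minus the wild-type mean, with a row per gene and a column per library: the 4 members with the Skil pattern at the top, then the pathway genes Pmepa1 and Bhlhe40, then 4 of the 5 genes most correlated with Skil. Red (higher than wild type) fills the Scribble null and Yap1 Taz null columns, Bmpr1a is deepest in Yap1 Taz null at 2.32, and Bhlhe40 is blue in triple null at -0.59.

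The rest of the pathway was followed through 86 further genes in 9 roles, of which 65 reached the level needed for testing. In Scribble null against wild type 1 of the 65 rose and 0 fell (limma, Benjamini-Hochberg adjusted p under 0.05), with a median difference of 0.24 beside 0.14 for all genes; of all genes 1.30% passed, so 1 of 65 is near the background. In Yap1 Taz null and in triple null against wild type 0 of 65 passed (limma), with 13 and 10 at an unadjusted p under 0.05, as had 14.3% and 10.9% of all genes. In triple null 2 fell against Scribble null and 0 rose, where 0.212% of all genes passed, and 0 passed against Yap1 Taz null, where 12 had an unadjusted limma p under 0.05 (8.41% of all genes did). For the departure from additivity 1 gene was lower and 0 higher, where 0.635% of all genes passed.

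Gdf15, a stress-induced ligand of the TGF-beta superfamily, rose in Scribble null. It was at 47.9 and 45.6 TPM in Scribble null, 15.3 and 15.9 in Yap1 Taz null, 14.3 and 10.5 in triple null, and 19.7 and 17.8 in wild type. Scribble null lay above all 6 other libraries, with a difference from wild type of 1.27 (limma, Benjamini-Hochberg adjusted p = 0.0356, n = 2 each). It fell in triple null against Scribble null, by a difference of -1.85 (limma adjusted p = 0.0147), a call lost without either library of triple null or of Scribble null (adjusted p 0.0438 to 0.149 over the 8 fits). The Scribble null call was lost in each of the 8 fits that left out 1 library, with adjusted p between 0.0589 and 0.213.

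Bhlhe40, a transcription factor that TGF-beta induces in many cells, fell in triple null against Scribble null. It was at 59.4 and 59.4 TPM in triple null, against 172 and 152 TPM in Scribble null. In Yap1 Taz null it was at 117 and 109.6 TPM, and in wild type at 79.0 and 102 TPM. The difference of triple null from Scribble null was -1.43 (limma adjusted p = 0.0127), and the departure from additivity was -1.76 (limma adjusted p = 0.0151). Triple null lay below all other libraries. Without 1 library, the call against Scribble null was lost in 3 of 8 fits (without Scribble null replicate 1 or either triple null library; adjusted p 0.0197 to 0.135). The call on the departure held in 2 of 8, without Scribble null replicate 2 or wild type replicate 2 (adjusted p 0.0217 to 0.0875).

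Other target genes and regulators did not pass, and are given by values. Pmepa1, a TGF-beta target that holds the pathway back, was at 14.1 and 16.6 TPM in Scribble null, 12.4 and 20.5 in Yap1 Taz null, 6.83 and 7.76 in triple null, and 3.83 and 8.28 in wild type. Its differences from wild type were 1.29 and 1.34 in Scribble null and Yap1 Taz null (limma adjusted p = 0.139 and 0.178). Id1, a BMP target, was at 90.0 and 57.3 TPM in Scribble null, 32.6 and 46.5 in Yap1 Taz null, 36.0 and 23.6 in triple null, and 93.5 and 63.8 in wild type. Both its Yap1 Taz null and triple null libraries lay below the other 4, with a difference of -1.38 in triple null (limma adjusted p = 0.159). Rnf111, the ligase Arkadia that degrades Ski, Skil and Smad7, was at 52.7 and 49.1 TPM in Scribble null, 45.5 and 44.0 in Yap1 Taz null, 36.7 and 38.2 in triple null, and 25.03 and 34.6 in wild type. It had the Skil pattern and was 1 of 9 of the 65 tested genes with it: Ltbp1, Furin, Rnf111, Usp11, Pmepa1, Ep300, Cdkn1a, Bhlhe40 and Junb. Over all genes tested the share with the pattern was 4.92%.

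Genes of latency, receptors and nuclear partners likewise did not pass. Ltbp1, which tethers latent TGF-beta to the matrix, was at 17.7 and 15.8 TPM in Scribble null, 13.2 and 16.7 in Yap1 Taz null, 12.45 and 8.66 in triple null, and 7.65 and 7.15 in wild type, with a Scribble null difference of 1.08 (limma adjusted p = 0.0988). Bmpr2, the type II receptor for BMPs, was at 31.8 and 39.2 TPM in Scribble null, 35.1 and 43.9 in Yap1 Taz null, 32.8 and 33.3 in triple null, and 18.5 and 25.1 in wild type. All 6 null libraries of Bmpr2 lay above both wild-type libraries, as for Tgfbr2, with differences of 0.68, 0.83 and 0.59 and adjusted p of 0.166, 0.157 and 0.376 (limma). Ep300, the acetyltransferase that coactivates SMADs, was at 143 and 137 TPM in Scribble null, 135 and 144 in Yap1 Taz null, 94.5 and 119 in triple null, and 88.9 and 91.02 in wild type, with a departure from additivity of -1.03 (limma adjusted p = 0.0876). The type I receptor Acvr1b, the integrin subunit Itgav and the latency protein Ltbp4 differed by 0.81, 1.17 and 0.96 in Scribble null, and the smallest adjusted p of the 3 was 0.107, for Acvr1b (limma). Tgfbr3, the betaglycan coreceptor, differed by 0.25, -0.05 and 0.37 in Scribble null, Yap1 Taz null and triple null, and the BMP-binding protein Twsg1 by -0.08, -0.28 and 0.13. The corepressor Tgif1 differed by 0.67 in Scribble null, the TGF-beta-stimulated Tsc22d1 by 0.58, and the ligase Nedd4l by 1.10 in Yap1 Taz null. In the SMAD-independent branch, the kinase Map3k7 (TAK1) differed by -0.52 and the ligase Traf6 by 0.39 in Yap1 Taz null. The ubiquitin ligase Xiap differed by 0.50 in Scribble null (limma adjusted p = 0.246), 0.25 in Yap1 Taz null and 0.46 in triple null.

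By role, the 14 target genes had 12 tested, with a median difference from wild type of 0.06 in Scribble null, -0.03 in Yap1 Taz null and -0.53 in triple null. Of these 12, 8 had both triple null libraries below both wild-type libraries, as had 14.2% of all genes. The 13 regulators of receptors and SMADs, all tested, had medians of 0.43, 0.28 and 0.17 in the same order. The 3 tested receptor-activated SMADs, Smad1, Smad2 and Smad5, were between -0.21 and 0.28 in every comparison with wild type. Ligands apart from Gdf15 were low or did not pass: Tgfb2 was at 1.30 and 1.81 TPM in Yap1 Taz null, against 0.172 and 0.266 TPM in wild type, a difference of 1.06 (limma adjusted p = 0.220); it was at 0.0962 and 0.313 TPM in Scribble null and 0.232 and 0.449 TPM in triple null. It entered the test only through Yap1 Taz null, the group where it is high. Bmp7, a BMP ligand, differed by 0.46, 0.70 and 0.32 in Scribble null, Yap1 Taz null and triple null, none of which passed. Nog and Foxh1 were listed at 0 in all 8 libraries, and 7 of the 8 extracellular antagonists did not reach the level for testing.

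**Figure D4:**
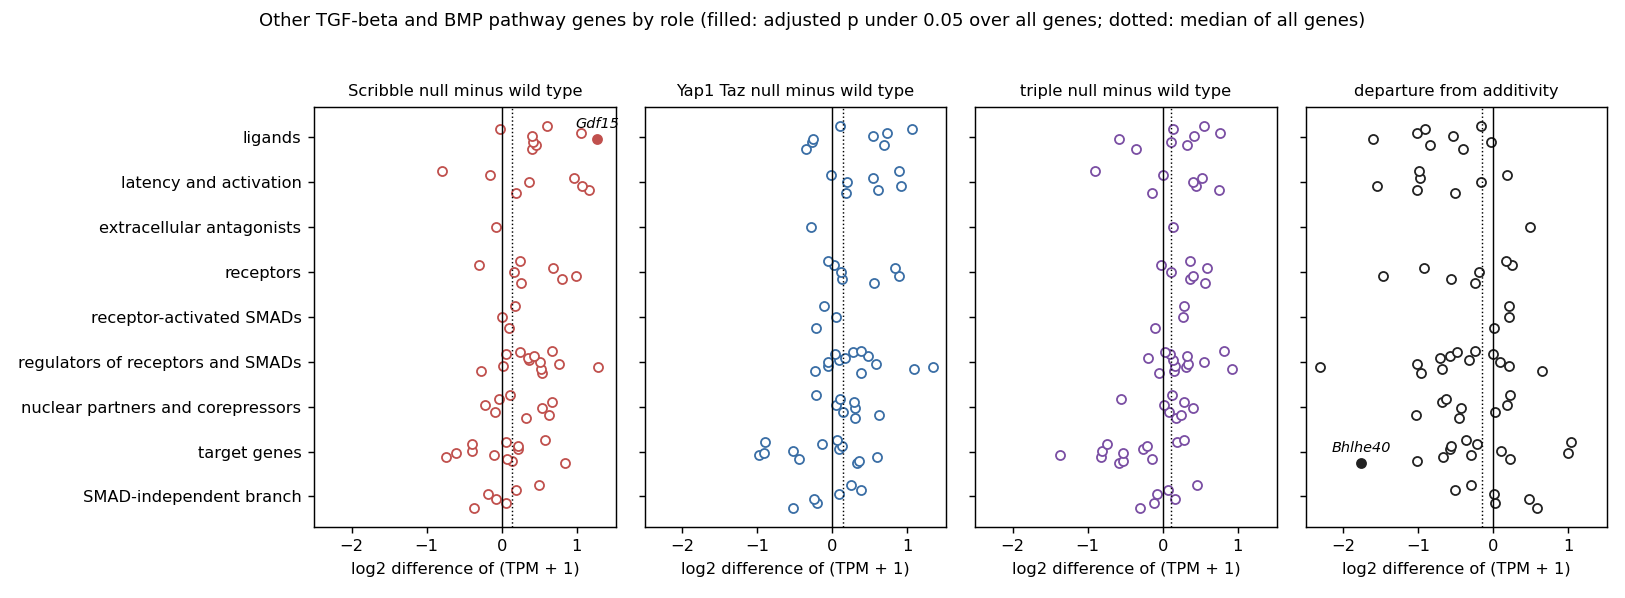
Difference in log2(TPM + 1) from wild type of each tested pathway gene, by role, in Scribble null, Yap1 Taz null and triple null, and departure of triple null from additivity, with 1 point per gene, filled where it passed (Gdf15, Bhlhe40), and a dotted line at the median of all genes. Target genes centre at -0.53 in triple null, against 0.06 in Scribble null and -0.03 in Yap1 Taz null, and receptor-activated SMADs lie within -0.21 and 0.28.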

How the data were processed

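RNA-seq libraries were made with the Ovation RNA-Seq System v2 and Nextera XT, per the labels' protocols. The authors deposited a TPM value per gene symbol for each library, and each table sums to 1000000. They also deposited 1 table of signal values for the whole series, whose unit is not named and whose columns sum to 818363 to 888261; it was used as an alternative. TopHat (no version) and mm10 are named per the submitters' processing notes; the read counter, with its strand setting, was not given in the sources used here. Depth per library is unknown, since TPM does not keep it, and no counting interval is given. Genes at 1 TPM or more numbered 14024 to 14970 per library.

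Groups and replicate numbers came from the labels. limma 3.58.1 (R 4.3.3) was fitted to log2(TPM + 1) over all 8 libraries, with 1 mean per genotype and a mean-variance trend, for 16064 genes at 1 TPM or more in at least 2 libraries, with Benjamini-Hochberg adjustment over all of them and calls at 0.05. A fold on that scale understates changes of low genes. The fit was tested on simulated data. The members and lists were chosen with earlier results of these data known. Beyond the members, the genes named are those called in any comparison, the 3 genes of each role with the smallest p against wild type, the 5 most correlated with Skil and with Bmpr1a, and the marker lists; a few of these genes are not reported here. Rank within the 5 chose Dennd4a; Aspscr1 and Clec9a were chosen after their values were seen. Gene positions are from GENCODE vM21 (GRCm38). Alternatives changed the pseudocount, filter, scaling, samples, trend, block and table.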

Additional observations from a re-analysis of the deposited data

Results flagged for a closer look

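For 6 members, Yap1 Taz null differed from wild type one way, and triple null differed from Scribble null the other way. In neither comparison did the TPM of the libraries overlap. For Tgfbr1 the gaps were narrow, at 18.743 against 18.663 TPM and 19.71 against 20.04 TPM. The share of all genes with both was not counted, so nothing is read from the count. Singly, Yap1 Taz null lay without overlap above wild type for 32.0% of all genes and below it for 14.5%. Triple null lay below Scribble null for 21.1% and above it for 19.0%. A difference in sex or cell make-up of Yap1 Taz null cannot be told apart from its genotype here. The difference between these 2 comparisons, on the log2(TPM + 1) scale, was -2.75 for Skil, -0.95 for Ski and -2.07 for Smad7. It was -0.79 for Tgfbr1, -2.59 for Bmpr1a and 0.42 for Tgfb1. Over other settings the Bmpr1a value ran between -3.86 and -1.18, and the Tgfb1 value fell to 0.06. In the series table the Yap1 Taz null and wild-type libraries of Tgfb1 overlapped. As these genes were chosen on these levels, the values are a description: no p is given for them, and nothing is read from the calls of Skil and Bmpr1a in the fit over all genes. Bhlhe40 was brought up by the test of the same difference, at -1.76 (limma, Benjamini-Hochberg adjusted p = 0.0151).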

How the results depend on the processing

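For Skil the difference from wild type was 1.43, 1.32 and 1.55 in Scribble null and 1.37, 1.26 and 1.52 in Yap1 Taz null with a pseudocount of 5, median-ratio scaling and the series table; leaving out 1 library gave 1.45 to 1.54 and 1.40 to 1.47. In triple null it was 0.0381 with median-ratio scaling. The departure from additivity was -2.63, -2.54 and -2.86 under the same settings and -2.79 to -2.71 without 1 library. Of the wider list in Scribble null against wild type, called genes numbered 0 with no filter, median-ratio scaling, only the groups compared, no trend, and the replicate block, 2 with the 5 TPM filter, and 0 without any 1 library. Triple null against Scribble null had 0 with only the groups compared, 1 with no trend, 1 in the series table, and 0 to 2 without 1 library. The departure had 2 with the 5 TPM filter, 0 with no trend, and 0 to 1 without 1 library. The cause was not tested. The block moved no other count of the list. Of 40 differences of members, 6 changed sign under some setting: Smad7 in triple null, Smad6 in Scribble null, Smad3 in Scribble null and in its departure (0.13 without Scribble null replicate 2), Tgfb1 in Yap1 Taz null and Tgfbr1 in triple null. Over all genes, same-numbered libraries did not deviate together (correlations -0.053 to 0.026). Correlations over all genes cannot show whether the numbers pair libraries for some genes, so pairing was not settled. No near-identical copies were found, so that alternative gave no value. With 2 libraries per genotype and no known depth, small differences are not resolved, and larger ones can be missed.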
